A study of Mus musculus with 8 samples.

Results

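The cells described here are a mouse mammary tumour line from the polyoma middle T (PyMT) model, called WTA in the labels, that carried an empty lentiviral vector and had been kept in 50 uM camptothecin for 36 h. Only the 3 arrays of these empty-vector cells were used for the description, of 8 arrays in the series. On each array the tumour RNA was labelled with Cy5, and a common reference (Universal Mouse Reference RNA, blended from 11 mouse cell lines) with Cy3, so every spot gave a ratio of tumour cells over the mix. The question was which genes and lineage programmes these cells express, or lack, relative to that mix.

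PyMT is an oncogene of mouse polyomavirus that drives fast-growing mammary carcinomas when it is expressed in the mammary epithelium of transgenic mice. Camptothecin traps topoisomerase I on DNA and causes breaks when replication forks meet it. A universal reference RNA blends unlike cell lines so that most genes give some signal in it, and a ratio to it tells how a sample stands against that blend and not against a normal tissue.

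The empty-vector cells were wild type for Mtdh, of the FVB strain, carried the LKO1 vector and had been selected with puromycin. The other arrays held the same WTA line with an Snd1 shRNA (3 arrays) and 1 array each of an Mtdh-knockout PyMT line on FVB that had been given back wild-type Mtdh or Mtdh with the W391D change and sorted for GFP. All 4 populations had received the same camptothecin treatment. No untreated cells were among the samples, so what belongs to the tumour line, to its culture and to the drug cannot be told apart here. The labels name neither the promoter of the oncogene nor the 11 cell lines, and they do not say whether the 3 vector replicates were separate cultures, so the p-values rest on a spread between arrays that could be purely technical. Dyes were not swapped and the reference was 1 RNA, so a probe's dye bias is part of its ratio and the reference's own spread is not in the error.

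The 3 vector arrays gave closely similar ratios, with Pearson correlations of 0.982, 0.983 and 0.993 across probes, which are not independent replicates. Vector replicate 1 lay on a slide with knockdown replicate 1, and vector replicates 2 and 3 lay on another with knockdown replicates 2 and 3. Of the 43379 spots per array that were not controls, 78.6% to 88.5% were well above background in Cy5 and 81.4% to 91.9% in Cy3. Before normalization the median log2 ratio was 0.47, 0.76 and 0.71 on the 3 arrays. The number of arrays limits the precision of every value below.

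A total of 25951 features, 17085 of them with a gene symbol, could be tested. A feature was called when its ratio differed from 1 by more than 2-fold (limma's treat test, Benjamini-Hochberg adjusted p under 0.05). The tumour cells were higher than the reference for 1278 features, 4.92% of those tested, and lower for 2510, or 9.67%, which makes 14.6% in either direction. Higher features were thus 33.7% of the calls, but this share rested on the loess normalization: with each array centred on its median instead, 4327 features were higher and 1651 lower, and the share was 72.4%. Among named genes, 358 were at least 4-fold higher and 648 at least 4-fold lower, and 12 against 71 passed 16-fold. Counts in the gene lists below are to be read beside the 4.92% higher and 9.67% lower over all features. The median log2 ratio over all features tested was -0.03, the median standard deviation (SD) over the 3 arrays was 0.06, and the median standard error (SE) was 0.04. If the 11 lines contributed equal amounts of RNA, which the labels do not state, a gene made by a single one of them at the tumour cells' level would show a log2 ratio of 3.46. In these bulk samples, a smaller share of cells that express a gene and less RNA per cell cannot be told apart.

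The 15 highest ratios included E-cadherin, a claudin and a tricellular junction gene beside genes of other kinds. Mal2, a proteolipid of apical membrane traffic, had log2 ratios of 4.27, 4.66 and 4.69 on vector arrays 1 to 3, a mean of 4.54 (SE 0.09, n = 3), or 23.3-fold (adjusted p = 3.5e-06). Serpinb5 (maspin), a serpin of epithelial cells, stood at 4.36, 4.53 and 4.56, and Lsr, a receptor that also builds tricellular junctions, at 4.35, 4.40 and 4.38. Cdh1, which encodes E-cadherin, the adhesion molecule of epithelial junctions, read 3.96, 4.23 and 4.27, which is 17.8-fold above the reference (mean 4.15, SE 0.07, adjusted p = 2.2e-06). For Mal2, Serpinb5 and Cdh1, vector array 1 gave the lowest of the 3 values, still more than 3 log2 units above 0. Macc1, a regulator of Met transcription, had a mean of 4.46, the water channel gene Aqp5 one of 4.15, and Mmp13, a collagenase, one of 4.31 with its 3 values between 4.29 and 4.33. The tight junction gene Cldn3 (4.06), Bspry (4.05), Tmem54 (4.12), Lratd2 (3.93), the endosomal GTPase gene Rab15 (3.91) and the adhesion gene Flrt3 (3.88) completed the measured extremes with Tchh and Plekhs1. Tchh, which encodes trichohyalin of the hair follicle, led the list at 4.63, but its other probe gave 0.09. Plekhs1 read 4.36 on its brightest probe and 1.83 on the other, so the size for these 2 genes depends on the probe.

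**Figure D1:**
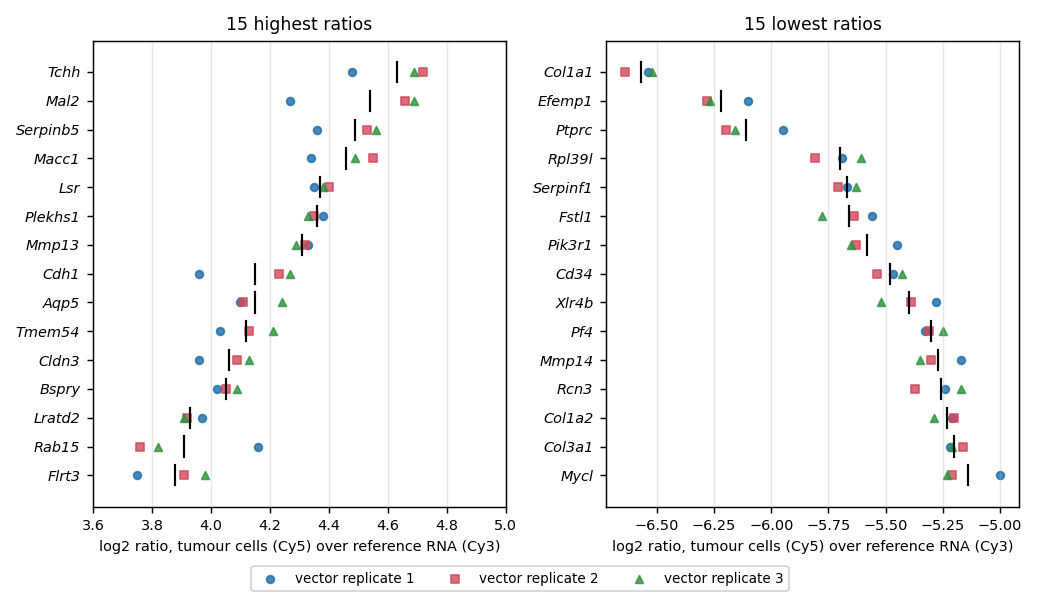
Log2 ratio of tumour cells over reference RNA on each of the 3 vector arrays for the 15 highest and 15 lowest named genes measured in both dyes; symbols mark the arrays and black ticks the mean of 3. The highest means run from 3.88 to 4.63 and the lowest from -6.57 to -5.14, and the arrays lie close together in every row.

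Epithelial genes stood high as a group. Of 34 measured genes of junctions and polarity, 27 were called higher and 0 lower, with a median of 2.50 against -0.03 over all features. Besides Cdh1 and Cldn3 they included the claudin genes Cldn1 (3.29) and Cldn7 (3.13), the plakophilin gene Pkp3 (3.09), the desmosomal genes Dsg2 (2.89, other probes 0.42 to 2.84) and Dsp (2.76, other probes 0.29 to 2.33), and the polarity gene Crb3 (2.81). Of 19 measured epithelial transcription, splicing and protease factors, 16 were higher and 0 lower (median 2.11). Esrp1, which directs epithelial splicing, had log2 ratios of 2.75, 2.91 and 2.87. Grhl2, a master activator of junction genes, had 2.32, 2.49 and 2.48 on its brightest probe, while its other probes gave 0.18 to 0.39. Prss8 (2.59) and St14 (2.11, other probe 0.80), membrane serine proteases, and their inhibitor gene Spint1 (2.51) were also higher. Both groups kept their direction under every scaling tried, with medians of 2.50 to 3.81 for junctions and 2.11 to 3.47 for factors. With the mean of all probes of a gene the medians were smaller, 1.946 with 25 higher and 1.765 with 15 higher. The 7 junction genes that were not called, such as Tjp1 (0.15), Pkp2 (0.50) and Cxadr (0.61), all had means above 0.

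**Figure D2:**
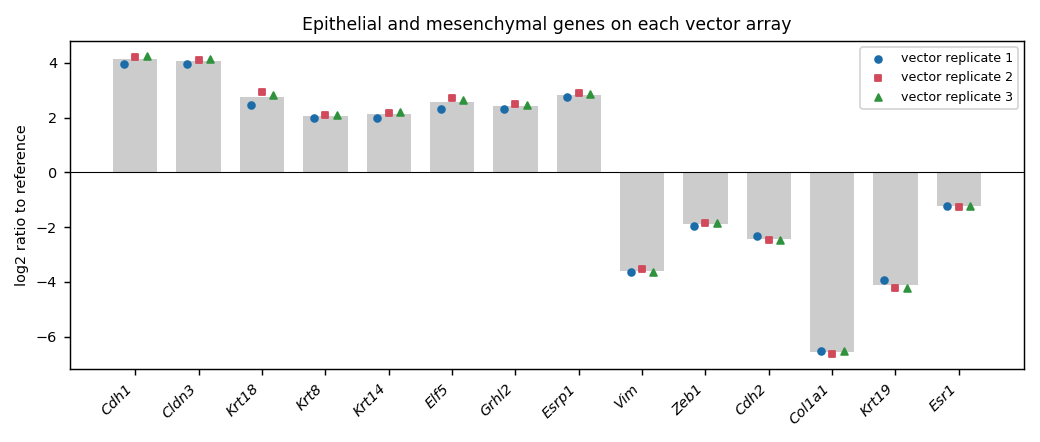
Log2 ratio to the reference of 14 epithelial, mammary and mesenchymal genes; bars show the mean of the 3 vector arrays and symbols each array. Keratin genes Krt8, Krt18 and Krt14 lie between 2.07 and 2.76, whereas Krt19 lies at -4.13 and Vim at -3.60.

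Mammary identity was mixed rather than uniformly high. Of 28 measured luminal genes, 12 were higher and 5 lower (median 0.52). The simple-epithelium keratin genes Krt18 (2.48, 2.95 and 2.84 on the 3 arrays), Krt8 (1.99, 2.11 and 2.09) and Krt7 (mean 2.74) were higher, as were Areg (3.29), an EGF receptor ligand of mammary ducts, Wfdc2 (3.01), Aldh1a3 (2.97), and Epcam (1.82). Elf5, a factor of the secretory alveolar lineage, had a mean of 2.56 (SE 0.08), and Gata3, a luminal master factor, one of 1.16 (SE 0.04, adjusted p = 0.032). Against these, Krt19, another luminal keratin gene, read -3.91, -4.24 and -4.23, a 17.5-fold lower signal than in the reference (adjusted p = 2.7e-06). Tbx3 (-2.93), Xbp1 (-2.13), Tspan8 (-1.62) and the oestrogen receptor gene Esr1 (-1.23, with another probe at -0.02) were lower too. Foxa1, a cofactor of the oestrogen receptor, was not called (0.83). With median centring 13 luminal genes were higher and 4 lower, and Esr1 was no longer called lower. Krt19 differed between the tumour lines: it stood at -3.24 in the knockdown cells, but at -0.40 and -0.28 in the 2 arrays of the Mtdh-knockout line, which have no replicates.

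Basal and myoepithelial genes were split. Of 23 measured, 5 were higher: Itgb4 (3.41), the integrin of hemidesmosomes, Id4 (2.46, other probe 1.43), Ngfr (2.27, other probe 0.10), the basal keratin gene Krt14 (2.00, 2.19 and 2.22) and Sox10 (1.24, other probe 0.32). With the mean of all probes of a gene, 3 were higher and 4 lower, and Ngfr was not called. The partner of Krt14, Krt5, was not called (-0.07, -0.25 and -0.25), nor was the basal master factor gene Trp63 (0.24). Tagln, a smooth muscle gene of contractile cells, was lower at -4.02, -2.31 and -2.54 (mean -2.96, SD 0.93, other probe -3.29). Dkk3 was lower too (-1.35), and Acta2 stood at -0.74 without a call (other probes -3.52 to -0.23). Among 11 measured milk protein genes 1 was higher, the casein gene Csn3 (1.99, 2.50 and 2.40), and 1 lower, Xdh (-1.70, other probe -0.86). Each was 9.09% of the list, beside 4.92% higher and 9.67% lower over all features. The whey protein gene Wap (-0.01) and Lalba (-0.35) were not called.

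At the other end stood the genes of fibrous connective tissue. Col1a1, a chain of type I collagen, had log2 ratios of -6.54, -6.64 and -6.52, or 94.7-fold less signal than in the reference (mean -6.57, SE 0.04, adjusted p = 5.2e-07), while its other probes gave -2.95 to -1.12. Col1a2, the partner chain, stood at -5.21, -5.20 and -5.29 on a single probe. Col3a1 gave -5.20 and, on another probe, -0.63. Efemp1 (fibulin-3, an elastic fibre protein) read -6.10, -6.28 and -6.27, Fstl1, a secreted glycoprotein of stromal cells, had a mean of -5.66, and Serpinf1, a secreted anti-angiogenic serpin, one of -5.67 (other probe -2.79). Mmp14, a membrane-bound collagenase, read -5.17, -5.30 and -5.35 (other probe -1.59). Rcn3 (-5.26), a calcium-binding protein of the secretory pathway, and Mycl (-5.14), a Myc family gene, were also among the lowest. So were Rpl39l (-5.70; other probe -1.79), a paralogue of a ribosomal protein gene, Pik3r1 (-5.58), the regulatory subunit of PI3-kinase, whose other probes ran from -2.97 to 0.14, and Xlr4b (-5.40; other probe -3.89).

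The whole stromal list followed: of 21 measured genes 20 were lower and 0 higher, and the median was -3.30. The proteoglycan gene Dcn (-4.58), Col6a3 (-4.55, other probes -0.20 to -0.08), Col5a2 (-4.04), Pdgfra (-3.78, other probe -0.41) and Pdgfrb (-3.28), receptors of fibroblasts and pericytes, were in it, and only Fap (-0.48) was not called. Fap was well above background in Cy5 on 1 of the 3 arrays. Of 22 measured mesenchymal genes, 14 were lower and 1 higher (median -1.62). Vim, the intermediate filament gene of mesenchymal cells, read -3.64, -3.53 and -3.62 (adjusted p = 8.7e-07). N-cadherin (Cdh2, -2.41), Fn1 (-2.31, other probes -1.40 to -1.32), and the repressor genes of epithelial fate Zeb1 (-1.89) and Zeb2 (-2.32, other probes from -2.02 to -0.74) were lower. The exception was Twist1, a transcription factor of mesenchymal cells, at 1.63, 1.49 and 1.61 (adjusted p = 0.00015), and Snai2 (0.24) and Cd44 (0.41) were not called. Cdh11 is uncertain, since its brightest probe gave -0.42 and the others -5.26 to -4.65. With median centring, 9 mesenchymal genes stayed lower by count and 2 were higher (median -0.91), and the stromal list had 18 lower (median -2.62).

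Genes shared by all leukocytes were mostly lower than in the reference. Ptprc, which encodes CD45, read -5.95, -6.20 and -6.16 on its brightest probe (68.8-fold, adjusted p = 6.0e-07) and -1.65 to -1.19 on the others. Of 20 measured pan-leukocyte genes 18 were lower, among them Arhgdib (-4.49), Lcp1 (-3.70), Cd52 (-3.58), Rac2 (-3.52) and Coro1a (-3.46), and the median was -2.82. Gmfg, a regulator of branched actin, was the only one called higher (1.1, 1.25 and 1.3, adjusted p = 0.021), with 1.23 on its other probe. Its call was lost without vector replicate 2 or 3 (adjusted p = 0.12 and 0.127). In B cells, 5 of 17 measured genes were lower and 0 higher (median -0.34), led by the coactivator gene Pou2af1 (-5.12) and the surface genes Cd79b (-4.43) and Ms4a1 (-4.16). For T cells the count was 8 of 16 (median -1.28), with Thy1 (-3.86, other probe -1.79), Lat (-3.32) and Bcl11b (-2.86, other probe -1.20) lowest. The macrophage and myeloid list gave 7 of 20 (median -0.85), including the macrophage surface receptor gene Adgre1 (-3.62, other probe -0.09), Tyrobp (-3.22) and Lyz1 (-3.72), whose signal cannot be separated with certainty from its close copy Lyz2 (-0.92). Pf4, a platelet chemokine gene (-5.30), and Cd34, a marker of blood progenitors and vessels (-5.48), were among the lowest of all genes.

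Many lineage markers were dim in both dyes, where a ratio near 0 says nothing of likeness. Brightness here is the mean of the log2 signals of both dyes; its lower quartile over all features was 7 and its median 8.12. The median brightness was 7.08 for 17 testis and steroidogenic genes, 7.11 for 18 hepatocyte genes, 7.12 for 13 epidermal genes and 7.13 for 17 kidney genes. Of 20 myeloid and 17 B-cell genes, 7 and 6 lay below the lower quartile, against 0 of 34 junction genes. For example, Alb (0.23), Cd4 (0.03) and Pax2 (-0.10) were not called, whereas 2 of 18 hepatocyte genes, Afp (-1.74) and Rbp4 (-2.23), and 1 of 17 kidney genes, Wt1 (-2.78), were lower, shares near or below the 9.67% over all features. Of 25 muscle genes 6 were lower, including Acta1 (-3.26), Myl1 (-2.74, other probe -0.46) and Tnnt1 (-2.58), and Chrnb1 was higher (1.31).

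Among the remaining lineages a few single genes stood out. Cdh5, the endothelial cadherin gene, read 2.26, 2.74 and 2.63, with another probe at 0.39, while Flt1 (-1.90) and Eng (-1.44) were lower and Pecam1 (-0.53) was not called. Fabp4, a fatty acid carrier of adipocytes, stood at 2.03 (other probes 0.49 to 1.90), but Adipoq was at 0.02 and Lpl at -3.13 (other probe -1.25). Of 15 neural genes 3 were higher, among them Map2 (2.03), a microtubule protein of neurons, and Ncam1 (-2.83, not called with the mean of all probes) and Stmn2 (-2.02) were lower. Krt13 had a mean of 1.90 (other probe -0.70) and Inhba, the activin A subunit, one of 1.31. Cdh5 and Fabp4 stood at -0.06 and 0.13, and at -2.01 and -1.74, in the Mtdh-knockout line with wild-type and W391D Mtdh. Of 16 imprinted and oncofetal genes 6 were lower, including Grb10 (-4.58, other probes -1.71 to -0.50), Dlk1 (-3.48), Igf2 (-2.74) and Hmga2 (-2.74), and Snrpn was higher (2.09). The pluripotency list had 12 measured members, of which Dppa4 (-1.63) was lower and none higher. The share called lower was 8.33%, near the 9.67% over all features.

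Hox genes, which mark position along the body axis, were never higher. Of 34 measured, 15 were lower and the median was -0.76. In brightness, 14 of the 34 were below the lower quartile. With the Feature Extraction log ratio 19 were lower and the median was -1.87, so the list's size depends on the processing. Hoxc9 read -4.33, -4.62 and -4.57, Hoxa7 -3.24, -3.55 and -3.49, and Hoxb7 had a mean of -3.08. These values were not shared by the knockdown cells of the same line, where Hoxc9 had a mean of -0.75 and Hoxa7 one of 0.81 (adjusted p for the difference 5.8e-07 for both). The list's median was 0.08 in knockdown cells and -0.56 and -0.60 in the Mtdh-knockout line. Among 6 sex-linked genes, the Y-linked Ddx3y (-3.47) and Eif2s3y (-3.17) were lower, with Cy5 well above background on 2 and 1 of the 3 arrays, and Xist was lower on its brightest probe (-1.67; other probes -1.42 to 0.04).

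**Figure D3:**
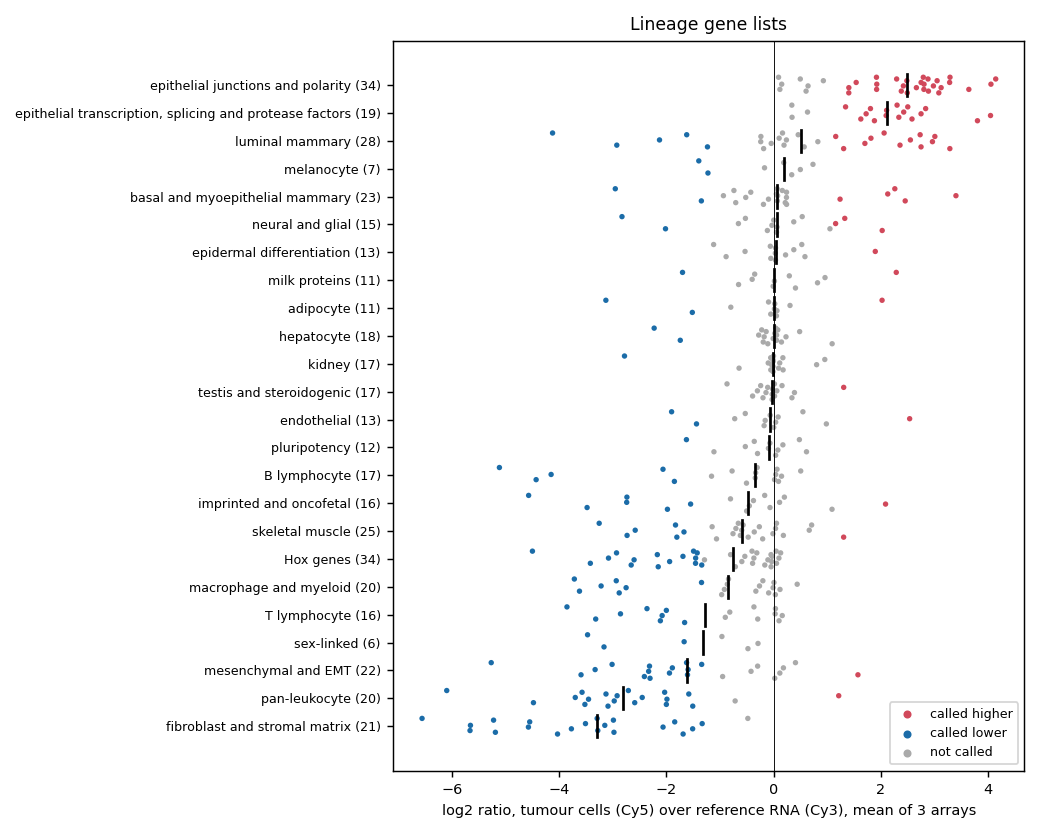
Log2 ratio to the reference (mean of 3 vector arrays) of every measured member of the 24 lineage lists, with the number measured in parentheses; red and blue points were called higher and lower, grey points were not called and black ticks are list medians. The 2 epithelial lists lie to the right, with medians of 2.50 and 2.11, and the stromal and pan-leukocyte lists to the left, at -3.30 and -2.82.

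Interferon-stimulated genes formed the highest group outside the epithelial lists. Type I interferons act through a complex of STAT proteins and IRF9, which binds an element in the promoters of antiviral genes. Of 37 measured genes 25 were higher and 1 lower, and the median was 1.81. The guanylate-binding protein gene Gbp3 read 3.75, 3.78 and 3.66 (13.3-fold, adjusted p = 8.3e-07). Isg15, a ubiquitin-like modifier, stood at 3.04, 3.06 and 3.02, and Ifit1, which binds viral RNA, at 2.85, 3.02 and 2.82. Each of these had 3 values within a narrow span, far above the 2-fold bound. The antiviral sensors and effectors Zbp1 (2.75), Oas1a (2.47), Ifih1 (2.08, other probe 1.12), Bst2 (2.26) and Rsad2 (1.91) were higher, as were the regulators Irf7 (2.44) and Irf9 (1.80, other probe 1.0). Stat2 (0.61) was not called, and Ifi44l was lower (-2.37, other probe -0.75). The group had 25 to 35 members higher under every scaling tried. Its median was 0.30 in the knockdown cells and 1.61 and 1.32 in the Mtdh-knockout line. Those values share the reference with the vector arrays.

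The core of the interferon-stimulated response element, 2 copies of GAAA with any 2 bases between them, was searched on both strands in the 250 bases before each gene's start (RefSeq, GRCm38.p6), overlapping matches counted. It was chosen after the values were seen. Of 13601 named genes tested that had a promoter in the table, 455 (3.35%) held a match. Among interferon genes called higher it was 10 of 19 (52.6%), and over all measured members 13 of 28 (46.4%), so the uncalled Stat2, Ifit3 and Oas1g also held one. The promoters of 3 of the strongest members are shown, with the matches in capitals: Gbp3 (chr3:142559794-142560043, plus strand, 2 matches), Ifit1 (chr19:34640639-34640888, plus strand, 2 matches) and Isg15 (chr4:156200819-156201068, minus strand, 3 overlapping matches).
Gbp3: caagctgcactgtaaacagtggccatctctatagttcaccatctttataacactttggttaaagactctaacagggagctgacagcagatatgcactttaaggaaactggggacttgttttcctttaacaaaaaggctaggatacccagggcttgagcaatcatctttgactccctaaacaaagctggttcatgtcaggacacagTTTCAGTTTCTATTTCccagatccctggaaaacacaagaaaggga
Ifit1: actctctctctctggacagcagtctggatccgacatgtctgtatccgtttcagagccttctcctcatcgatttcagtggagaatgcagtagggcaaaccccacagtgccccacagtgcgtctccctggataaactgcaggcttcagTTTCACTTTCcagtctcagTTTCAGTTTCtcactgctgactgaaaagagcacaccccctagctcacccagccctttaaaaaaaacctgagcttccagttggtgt
Isg15: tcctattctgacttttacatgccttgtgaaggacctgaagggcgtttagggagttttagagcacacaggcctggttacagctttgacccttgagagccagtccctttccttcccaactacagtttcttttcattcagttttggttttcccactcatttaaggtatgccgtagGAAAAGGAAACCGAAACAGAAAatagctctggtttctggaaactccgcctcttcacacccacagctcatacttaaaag
The match nearest the start lies 29 bases before it in Gbp3, 75 in Ifit1 and 56 in Isg15. A match describes letters in the sequence and is no evidence of binding in these cells. The same search for AACCGGTT, the palindrome of grainyhead factors such as Grhl2, likewise chosen after the values were seen, gave 0 of 26 measured epithelial genes with a promoter in the table, beside 26 of 13601 genes (0.191%).

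Antigen presentation genes were mostly not called. Among 15 genes of the MHC class I pathway, H2-K1 (1.70), H2-Q4 (1.55) and B2m (1.25) were higher, Psmb9, a subunit of the immunoproteasome, was lower (-2.03, -1.69 and -1.93), and the median was 0.06. The call of B2m was lost without vector replicate 2 or 3 (adjusted p = 0.0611 and 0.0715). With median centring 8 of the 15 were higher and 0 lower (median 1.17), so Psmb9 lost its call. H2 genes are near copies of each other, so their signals cannot be assigned to single genes with certainty. Of 27 chemokine and cytokine genes, 10 were higher and 5 lower (median -0.00). Ccl20 (3.4), which attracts cells through CCR6, and Cxcl10 (3.33), an interferon-induced attractant of T cells, were highest. The myeloid growth factor genes Csf3 (2.63) and Csf2 (2.21), Cxcl16 (2.02, other probe 0.80), Ptgs2 (1.86) and Il6 (1.42) were also higher. Cxcl12, a chemokine of stromal cells, was lower (-3.21, other probe -4.32), as were Saa3 (-3.62), Il33 (-2.29) and Ccl7 (-1.96).

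Of the hypoxia and glycolysis genes, more were lower than higher. Hypoxia-inducible factors switch on glucose uptake, glycolysis and mitophagy genes when oxygen is short. Of 22 measured genes 12 were lower and 0 higher, with a median of -1.52. Bnip3, a mitophagy receptor, read -4.24, -4.01 and -4.10 (17.3-fold, adjusted p = 1.2e-06), and Pdk1, which keeps pyruvate out of mitochondria, -3.77, -3.62 and -3.55. Adm (-3.54), Ndrg1 (-3.36), P4ha1 (-2.62), Egln3 (-2.60), Ankrd37 (-2.58) and Vegfa (-2.25, other probes -1.77 to -0.99) were lower, whereas the glycolytic genes Gapdh (-0.20), Ldha (-0.26), Pkm (-0.33) and Aldoa (-0.61) were not called. The group's position depends on scaling: with median centring 8 were lower and the median was -0.36, and without normalization 4 were lower and 5 higher. The letters ACGTG, the core of the hypoxia response element, also chosen after the values were seen, occurred on either strand in the same window of 3034 of 13601 genes (22.3%), in 6 of 11 hypoxia genes called lower (54.5%), and in 13 of 21 members (61.9%), so members without a call held it as well. The lowest member, Bnip3, and Ankrd37 are shown with the matches in capitals (chr7:138909507-138909756 and chr8:45999851-46000100, both minus strand, GRCm38.p6, 2 matches each). In Bnip3 they overlap as a palindrome.
Bnip3: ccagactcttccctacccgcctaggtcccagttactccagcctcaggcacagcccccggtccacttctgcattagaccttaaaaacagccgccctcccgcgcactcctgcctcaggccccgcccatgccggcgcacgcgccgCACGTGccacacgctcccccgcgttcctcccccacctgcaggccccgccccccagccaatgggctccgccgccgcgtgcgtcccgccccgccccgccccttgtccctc
Ankrd37: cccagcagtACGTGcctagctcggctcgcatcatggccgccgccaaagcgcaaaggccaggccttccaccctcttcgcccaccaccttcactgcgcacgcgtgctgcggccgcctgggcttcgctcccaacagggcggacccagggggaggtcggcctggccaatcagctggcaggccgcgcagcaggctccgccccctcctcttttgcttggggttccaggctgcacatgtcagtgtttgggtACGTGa

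Detoxification genes were also low against the reference. Of 26 measured targets of NRF2 and glutathione genes, 12 were lower and 0 higher (median -0.85). The glutathione transferase genes Gsta3 (-4.30, other probe -2.46), Gstm2 (-3.33) and Gstm1 (-2.91), whose families hold close copies, and the quinone reductase gene Nqo1 (-3.10, -3.08 and -3.0) were lowest, while Gclm (1.01) and Txnrd1 (-0.07) were not called. In the unfolded protein and integrated stress response, 8 of 26 genes were lower and 0 higher (median -0.79), among them Vldlr (-2.47), Xbp1 (-2.13) and the chaperone genes Hsp90b1 (-1.61) and Hspa5 (-1.29, -1.37 and -1.38). Of 27 immediate early genes, which respond to growth signals within minutes, 7 were lower and 2 higher: Egr1 read -4.74, -4.68 and -4.74 (26.4-fold) and Fos -2.54, -2.48 and -2.52, while Dusp4 (1.58) and Ier3 (1.32) were higher. With median centring, the medians of these 3 lists turned to 0.10, 0.26 and 0.59, and their counts of higher and lower genes to 4 and 9, 3 and 3, and 10 and 5. Gsta3, Nqo1 and Egr1 were still called lower there.

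Targets of p53, which responds to DNA damage, were not high relative to the mix. Of 32 measured genes 2 were higher, Rap2b (1.30, other probe 0.79) and Plk3 (1.24), 7 lower, and the median was -0.47. The shares were 6.25% higher and 21.9% lower, beside 4.92% and 9.67% over all features. Cdkn1a, the p21 inhibitor of the cell cycle, read -1.26, -1.12 and -1.18 (adjusted p = 0.017), and Ccng1 -2.06, -2.08 and -2.11 (other probe -0.93). Mdm2 (-0.56, other probe 0.52) and Bax (0.87) were not called, and Trp53 itself gave -0.77 on its brightest probe and 0.91 on another. In knockdown cells with the same drug, Cdkn1a had a mean of 2.14 and Ccng1 one of 1.03, and both differences from the vector cells passed the test (adjusted p = 1.6e-07 and 1.3e-07). The list's median was 0.54 in knockdown cells and -0.54 and -0.57 in the Mtdh-knockout line. With median centring, 8 p53 targets were higher and 4 lower in vector cells (median 0.36). Ccng1 was still called lower there, but Cdkn1a was not.

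Genes of proliferation stood close to the reference. Of 36 measured G2/M genes, Birc5, which encodes survivin (2.05, 2.00 and 2.04), and Ccnb2 (1.14) were higher, Mki67 was lower (-1.72, -1.81 and -1.71; other probe -1.43), and the median was 0.23. Of 38 replication genes, 0 were higher by treat and 2 lower, Pola1 (-1.73) and Uhrf1 (-1.52), with a median of 0.29. Ribosomal protein genes gave 4 lower of 33 (median -0.57) with Rpl3 lowest (-1.77), and respiratory chain genes 2 higher of 30 (median 0.18), Cycs (1.29) and Ndufa4 (1.26). In cholesterol synthesis Sc5d (1.81), Dhcr7 (1.69) and Ebp (1.2) were higher of 25 (median 0.41). The shares called higher were 5.56% of G2/M, 6.67% of respiratory and 12% of cholesterol genes, beside 4.92% over all features. Those called lower were 2.78% of G2/M, 5.26% of replication and 12.1% of ribosomal genes, beside 9.67% over all features. Without vector replicate 2 or 3 the calls of Ccnb2 (adjusted p = 0.163 and 0.246), Ebp (0.0782 and 0.0832) and Ndufa4 (0.139 and 0.135) were lost. These 5 lists had median brightness (mean log2 signal of both dyes) of 11.5 to 16.5 against 8.12 over all features, and with median centring 17 G2/M, 20 replication, 3 ribosomal, 17 respiratory and 13 cholesterol genes were higher and 0 lower in each, so no direction is given for them as groups.

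**Figure D4:**
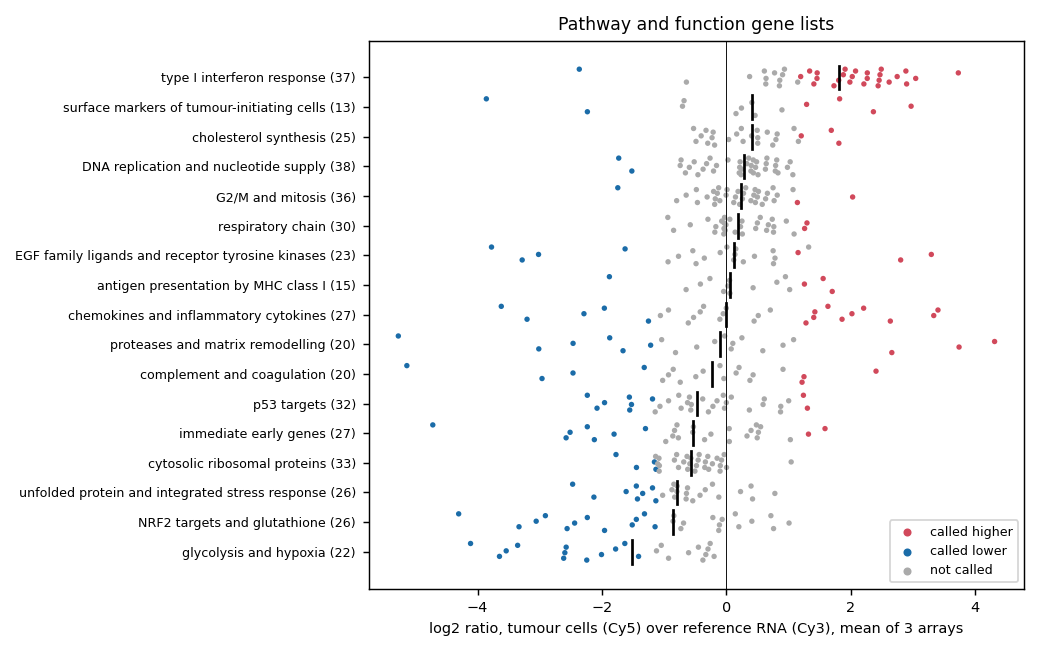
Log2 ratio to the reference (mean of 3 vector arrays) of every measured member of 17 pathway and function lists, drawn as for the lineages, with red and blue for called higher and lower. The interferon list has the highest median, 1.81, and the glycolysis and hypoxia list the lowest, -1.52; the medians of the NRF2, stress response, immediate early, p53, ribosomal, complement, chemokine and protease lists turn positive with median centring.

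Growth factor and surface genes varied gene by gene. The EGF receptor ligands Areg (3.22, 3.29 and 3.38), Epgn (2.80) and Hbegf (1.15) were higher, while the receptor gene Egfr was lower (-1.57, -1.67 and -1.65; other probes -0.75 to -0.38), and Erbb2 (0.45) and Erbb3 (0.27) were not called. Leaving out vector replicate 1, 2 or 3 ended the call of Hbegf (adjusted p = 0.0836, 0.0813 and 0.155). Igf1r was lower at -3.02 (other probes -1.33 to -0.74). Of 13 markers used for tumour-initiating mammary cells, Aldh1a3 (2.97), Cd24a (2.36), Epcam (1.82) and Cd9 (1.29) were higher. Thy1 and Aldh1a1 (-2.23) were lower, and Cd44 and Itgb3 (0.46) were not called. Among 20 protease genes, Mmp13, Klk8 (3.74) and Mmp10 (2.66) were higher, and Mmp14, Mmp2 (-3.02), Mmp11 (-2.46), Lgmn (-1.88) and the inhibitor genes Timp1 (-1.66, other probe -0.97) and Timp3 (-1.22) lower. Of 20 complement and coagulation genes, Tfpi (-2.96, other probes -0.85 to -0.14) and Thbd (-2.47), which restrain clotting, and C1s1 (-1.32, other probe -0.61) were lower, and Serpinb2 (2.40), Plaur (1.25) and Cd55 (1.22) were higher.

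Some genes were seen in one dye alone, so bounds were computed in place of ratios. There were 48 features well above background in Cy5 on all 3 arrays and in Cy3 on none, and 528 the other way. Each bound sets the mean of the bright channel against the lowest signal that passed as above background, or the dim probe's own where that was higher, without a dye swap. Kazn, which encodes kazrin of the epidermal cell envelope, was 8.27-fold higher in the tumour cells (adjusted p = 7.7e-05). Its other probes had log2 ratios of 0.15 to 1.12. Alx1 was 2.27-fold higher. For Kazn and Alx1 the dim probe's own signal was used, so the value is the mean ratio and not a lower limit. Nid2, a basement membrane protein, was at least 17.0-fold lower (adjusted p = 1.4e-05 by treat for its mean log2 ratio of -4.17). The background flag is set for each spot, so such bounds are approximate. Elmo1 (at least 5.17-fold, other probes -0.89 to 0.02), Ces2g (5.10), the phagocyte oxidase gene Cybb (3.65, other probe 0.05), Slfn4 (3.20), Layn (2.70) and Tox3 (2.37) were lower by at least the fold given. Gask1b (3.71) and Clec4a3 (3.45) were lower too, but their values are again mean ratios and not lower limits. Alx1 and Layn were not called without vector replicate 2 (adjusted p = 0.144 and 0.0753) or without replicate 3 (0.139 and 0.0777).

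The other tumour cells of the series share the reference, so their values are set side by side. Snd1 itself read -2.49, -2.40 and -2.43 in vector cells and had a mean of -3.33 in knockdown cells, a difference of 0.90 (SE 0.06) that is in the labelled direction and short of the 2-fold bound (adjusted p = 1). Mtdh stood at -0.66 in vector cells, at 0.42 with wild-type and at -0.10 with W391D Mtdh. Vector and knockdown cells differed by more than 2-fold for 506 features, 1.95% of those tested, 172 higher and 334 lower in vector cells. Of the 30 extreme genes named above, 8 were among them. With the replicate number as a block, since same-numbered arrays shared a slide, 189 and 355 features were called. Mmp14 was the clearest: -5.27 in vector cells, -0.83 in knockdown cells, and -0.57 and -0.83 in the Mtdh-knockout line. Mmp13 ran from 4.31 and 2.50 to 0.46 and 0.43 in the same order. Among the epithelial extremes, Cldn3 (4.06, 4.08, 4.13 and 4.25) and Serpinb5 (4.49, 4.59, 4.27 and 4.25) lay close together in all 4 populations, and Cdh1 ran 4.15, 3.62, 4.82 and 4.89. At the low end, Col1a2 stood between -5.29 and -4.83 and Efemp1 between -6.22 and -6.05 in all 4. The epithelial junction list had medians of 2.50, 2.15, 2.75 and 2.54, and the stromal list -3.30, -2.46, -3.53 and -3.53. The 2 single arrays allow no test.

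**Figure D5:**
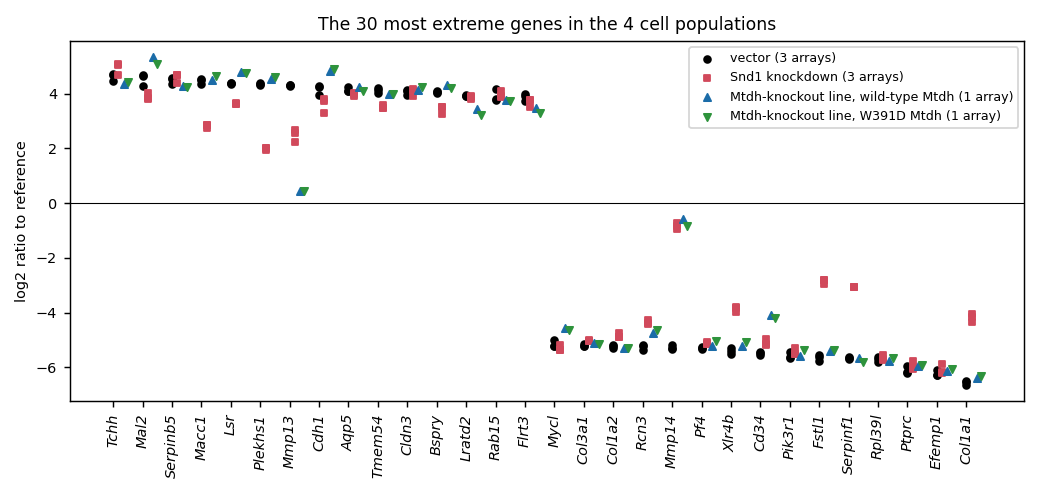
Log2 ratio to the reference of the 15 highest and 15 lowest genes of the vector cells in all 4 populations, which share the reference RNA; each point is 1 array. Genes such as Cldn3 and Serpinb5 lie close together. Macc1, Plekhs1, Mmp13, Col1a1, Serpinf1, Fstl1, Xlr4b and Mmp14 differed by more than 2-fold between vector and knockdown cells. Mmp14 lies at -5.27 on average in vector cells and between -0.94 and -0.57 on the arrays of the other 3 populations.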

How the data were processed

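Per the labels, tumour RNA was in the Cy5 channel and the common reference in Cy3 of 2-colour Agilent arrays. The deposited intensities are unnormalized median pixel signals of each spot; Agilent Feature Extraction 11.0.1.1 made them per the file headers, and the submitters' processing notes give version 9.5.3.1. The files also hold deposited log10 ratios of Cy5 to Cy3, background-subtracted and dye-normalized by that software per the file headers. From these the authors made the log2 ratios of the deposited value table (r 0.9878 to 0.9995 with each vector array, slope 1 to 1.001, 94.6% to 98.0% of 41156 probes equal within 0.01). Its column medians of 0.146, 0.119 and 0.116 for vector show no centring. Scanner flags are the authors' deposited flags, used as set.

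Signals were corrected with normexp (offset 50) and loess in limma 3.58.1 (R 4.3.3). Control spots (1639 per array) and outlier spots (77 to 90 on vector arrays) were left out, and none was saturated. Accessions matched to RefSeq named 27668 of 41174 probes (18883 symbols). The table's assembly, GRCm38.p6, is later than the mm9 of the headers, so it was used for names and, in its own coordinates, for promoters. The brightest probe stood for a gene (32053 features), and 25951 had Cy5 or Cy3 well above background on all 3 vector arrays. Ratios were tested against 2-fold with treat on 3 arrays, and vector against knockdown likewise on 3 and 3. On simulated data with the same 25951 features, 96.5% of 200 changed features were recovered with 0 false calls. Unchanged features were set to a log2 ratio of 0, well inside the 2-fold bound, and changed ones to 2 or 3 in either direction. Noise was independent between arrays. The simulation therefore could not check calls near the bound or the effect of slides. Deviations of vector and knockdown arrays with the same number correlated at 0.613, 0.344 and 0.343. The main comparison of vector and knockdown cells did not pair them, and the replicate number was a block in an alternative only. The correlation follows the slide: on the second slide, arrays of unlike number gave 0.259 and 0.397, and across slides all were between -0.513 and -0.398. A slide effect was also fitted as a random block, with its correlation (0.244) estimated over vector and knockdown arrays.

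The members and lists were chosen with earlier results of these data known. Named were the 15 highest and 15 lowest called genes with symbols measured in both dyes, the up to 10 largest bounds each way, up to 4 called members per direction of each list, Snd1 and Mtdh, and other list members where a description needed them. Clone names were left out, and a few genes the rule took are not reported here. The closing section gives the effect of the alternatives: background correction, scaling, filter, probe choice, test, prior, array weights, slide and left-out replicates.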

Additional observations from a re-analysis of the deposited data

Results flagged for a closer look

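Of the 15 highest and 15 lowest genes, the only results looked at this way, 8 had a ratio to the reference that differed by more than 2-fold between vector and knockdown cells of the same line (limma treat, Benjamini-Hochberg adjusted p under 0.05). The difference, vector minus knockdown in log2, was 1.65 for Macc1, 2.35 for Plekhs1 and 1.81 for Mmp13, which were high against the reference. It was -2.39 for Col1a1, -2.59 for Serpinf1, -2.81 for Fstl1, -1.52 for Xlr4b and -4.45 for Mmp14, which were low. Xlr4b belongs to an X-linked family of close copies, so its signal may not be its own. All 8 differed in the same direction within each slide. On the slide with 1 array of each group they were 1.60, 2.43 and 2.08 for Macc1, Plekhs1 and Mmp13 and ran from -4.46 (Mmp14) to -1.48 (Xlr4b) for the others. On the slide with 2 of each they were 1.67, 2.31 and 1.68, and from -4.43 to -1.54. In all 8 genes the vector cells lay farther from the reference than the knockdown cells did. The genes had been chosen for extreme ratios in the vector arrays.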

How the results depend on the processing

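The counts of higher and lower features moved by more than 1.5 times under these settings. They were 2072 higher with the Feature Extraction log ratio and 2070 with the value table. Median centring gave 4327 and 1651, and no normalization 8032 and 721. A test against a ratio of 1 gave 8848 and 10835, and a minimum of 4-fold 290 and 691. Leaving out 1 vector replicate gave 1097 to 1382 higher and 2264 to 2641 lower. Without normalization the median ratio of all features moved from -0.03 to 0.76, and with median centring to 0.12. For vector minus knockdown, the Feature Extraction ratio gave 266 higher, a test against no difference 5385 and 5953, and leaving out 1 replicate 130 to 170 higher and 299 to 329 lower. The replicate block gave 189 and 355, and the slide block 199 and 369.

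Over 195 named genes and 19 alternatives, 3472 values kept direction and call, 197 lost the call, 1 gained it and 12 changed sign; 108 genes never lost a call. With median centring, Rpl37 turned to 0.051 and Mtdh to 0.491. Among the lower genes named above, Pola1, Uhrf1, Egfr, Mki67, Psmb9, C1s1, Rpl3, Flt1, Eng, Afp, Xdh, Lgmn, Xist and Hsp90b1 lost their calls. By the counts of their lists, so did Esr1, Cdkn1a, Hspa5, Timp1 and Timp3. Alx1 lost its call among the higher genes. List members outside the naming rule were not followed gene by gene, so more of them may have lost a call. Without normalization the values were 0.171 for Uhrf1, 0.014 for Mki67, 0.278 for C1s1, 0.051 for Rpl3, 0.405 for Rpl23, 0.593 for Rps15, 0.699 for Rpl37, 0.287 for Gpnmb, 0.216 for Hsp90b1 and 1.139 for Mtdh. The cause was not tested.

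Signal over background limits genes dim in both dyes, and a single reference RNA without a dye swap limits every ratio.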
